A study of Mus musculus with 18 samples.

Results

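The comparison described here sets LAT KO cells against Y136F cells after 4 weeks of tamoxifen, in naive CD4+ T cells sorted as CD44low from mouse spleens. Its members were the 3 arrays titled 4-week tamoxifen LAT KO and the 3 arrays titled 4-week tamoxifen LATY136F, 6 of the 18 arrays of the series, and all autosomal genes with a symbol on the array. Of 16554 such genes 16421 could be tested, among 31571 named genes and unnamed sequences in the whole fit. All mice were labelled C57BL/6, and each array held total RNA of 1 mouse. By the titles, LAT KO mice carried a tamoxifen-inducible Cre (ERCre+), 1 floxed Lat allele and 1 null allele (LAT f/-), and Y136F mice carried the same Cre, 1 floxed allele and 1 allele with the Y136F change (LAT f/m). Deletion of the floxed allele leaves LAT KO cells with no functional allele and Y136F cells with the mutant allele alone. The 3 WT mice treated for 4 weeks, used below as a further level beside both mutants, were titled ERCre- LAT f/-, while the text of the series gives all mice as Cre-positive. The cell type in which the Cre was active is not given in the sources used here.

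LAT is the membrane adaptor that T cell receptor (TCR) kinases phosphorylate, and its tyrosines then hold the signalling proteins of the receptor together. The tyrosine changed in Y136F is the docking site of phospholipase C-gamma 1, the enzyme that starts calcium flux and Ras activation, while the other tyrosines, which bind the Grb2 and Gads adaptors, are kept. Mice with this mutation from birth are known for an expansion of Th2-like CD4+ T cells with tissue infiltration, so the comparison asks how loss of the whole adaptor differs from loss of a single docking site.

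The 6 arrays had a 75th percentile of processed signal between 1207.1 and 1542.0 intensity units, with 91.3% to 95.7% of 43379 spots well above background. Values below are scaled log2 signals, the log2 processed intensity of a gene's brightest probe minus the 75th percentile of its array, so that a difference of 1 is a doubling, and differences are LAT KO minus Y136F. All Y136F mice were labelled female and all 4-week LAT KO and WT mice male, so labelled sex and genotype cannot be told apart within the 6 arrays. One library went against its label. LAT KO replicate 2, labelled male, read 0.21 for Xist and -8.92 for Ddx3y, where LAT KO replicates 1 and 3 read -7.55 and -7.37 for Xist and -0.49 and -0.29 for Ddx3y. A 1-week LAT KO array departed from its label in the opposite direction. All results follow the labels, and the counts of the lists below are also given without LAT KO replicate 2 and with labelled sex as a term of the fit over all 18 arrays, where the sex effect is estimated from the 1-week groups. That term takes the labels of both contradicted arrays as they stand. For some lists and genes the outcome with the term and without both arrays, a fit chosen after seeing the data, is given too. Defining CD4+ T cell markers were high in both groups: Cd3d lay at 5.31, 5.46 and 5.35 in LAT KO and 5.44, 5.24 and 5.22 in Y136F cells, and Cd4 at 2.98, 2.72 and 2.98 against 2.97, 2.92 and 3.0.

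Lat itself read 3.16, 2.62 and 2.34 in the LAT KO arrays, against 4.43, 3.86 and 3.93 in the Y136F arrays, and the groups did not overlap. The difference was -1.37 ± 0.23 (SE; limma adjusted p = 0.00275, n = 3 each), a LAT KO level 0.388 times the Y136F level. An exact two-sided permutation test over the 20 splits of the 6 arrays gave p = 0.1, the smallest that 3 against 3 arrays allow. WT arrays read 3.29, 3.62 and 3.85, between both mutants on average. The call was kept with labelled sex as a term (adjusted p = 0.0417) and was lost with that term when both arrays with contradicted sex labels were left out (0.154). Where the probe lies relative to the floxed part of the gene is not stated, so the value does not measure the extent of deletion.

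At 4 weeks 661 autosomal genes passed an adjusted p of 0.05 in limma, 4.03% of the 16421 tested, beside 3.37% of all 31571 features. Of these, 199 were higher in LAT KO cells (1.21%) and 462 were lower (2.81%). The falls were also the larger changes: 341 genes were lower by at least 2-fold and 64 higher, 85 lower by at least 4-fold and 4 higher, and 14 lower by at least 8-fold and 1 higher. All 661 had LAT KO arrays that lay wholly on one side of the Y136F arrays, which held for 23.5% of all genes tested. The calls were made on the same arrays, so this separation is no further support for them. The median difference over all autosomal genes was 0.02. Without LAT KO replicate 2, 297 genes were called, 62 higher and 235 lower. Without Y136F replicate 1 there were 391 (87 higher and 304 lower), and without Y136F replicate 2 there were 385 (89 higher and 296 lower). With labelled sex as a term 122 were called, 45 higher and 77 lower. In these bulk samples, fewer cells of a type and less RNA per cell cannot be told apart, which applies to every difference below.

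**Figure D1:**
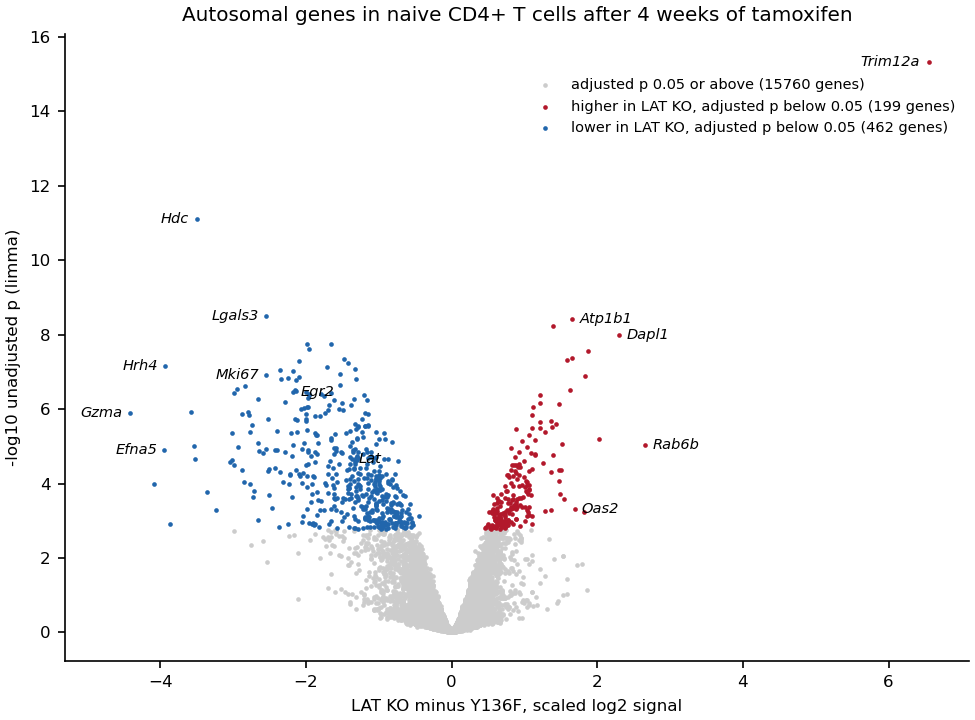
Each point is 1 of the 16421 autosomal genes tested, with the difference LAT KO minus Y136F in scaled log2 signal on the horizontal axis and -log10 of the unadjusted limma p on the vertical axis. Of the coloured genes, 199 lie on the right (higher in LAT KO) and 462 on the left (lower), with Trim12a at 6.55 farthest right and Gzma at -4.41 farthest left.

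Calls among the members of the receptor and its proximal kinases went in both directions. Of 16 tested genes of the TCR-CD3 complex, its coreceptor and its kinases, 2 were higher, 2 were lower and 12 did not pass the test, with a median of 0.00. The called share was 25.0%, against 4.03% of all autosomal genes. Tec, a tyrosine kinase, read 0.24, 0.41 and 0.43 in LAT KO cells and -0.89, -0.65 and -0.71 in Y136F cells, a rise of 1.11 ± 0.16 (limma adjusted p = 0.000779) that held with the sex term (adjusted p = 0.0061), the only member of the list to do so. Cd247, the zeta chain, was higher by 0.73 ± 0.18 (adjusted p = 0.0307), and its 2 other probes gave 0.21 and 0.79. The paired receptors Cd5 and Cd6, which dampen TCR signals, were each lower by 0.80 on average (adjusted p = 0.00803 and 0.0157). These last 3 calls were lost without LAT KO replicate 2 (adjusted p = 0.207, 0.0558 and 0.0875). Cd247 was also lost without LAT KO replicate 3, Y136F replicate 1 or Y136F replicate 2 (0.0954, 0.146 and 0.126), Cd5 without Y136F replicate 3 (0.0538), and Cd6 without LAT KO replicate 3, Y136F replicate 1 or Y136F replicate 3 (0.0504, 0.0676 and 0.0658). With the sex term Cd247, Cd5 and Cd6 lost their calls as well (0.0598, 0.193 and 0.511). Without LAT KO replicate 2 the list had 1 higher call and none lower. Zap70, the kinase that phosphorylates LAT, did not pass, with a difference of -0.52 ± 0.25 (adjusted p = 0.405). Of 21 tested genes of the LAT signalosome, 3 were higher and 2, Lat included, were lower (23.8% called, against 4.03% of all autosomal genes). Grap2, which encodes the Gads adaptor, read 0.81, 1.25 and 1.08 in LAT KO cells, against 0.24, 0.05 and 0.25 in Y136F cells (0.87 ± 0.15, adjusted p = 0.00248). Pik3r1, the regulatory subunit of PI3 kinase, was higher by 0.84 ± 0.16, and Dok2, an inhibitory adaptor that binds LAT complexes, was lower by 0.91 ± 0.14 (adjusted p = 0.00545 and 0.00123). The signalosome list had 2 higher and 2 lower calls without LAT KO replicate 2. With the sex term it had 1 of each, Pik3r1 and Lat, while Grap2 and Dok2 did not pass (0.131 and 0.169), and with the sex term and without both arrays with contradicted sex labels it had none. For Lcp2 (SLP-76) and Vav1 the differences of -0.46 and 0.39 did not pass the test.

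Genes that TCR signals switch on within hours were lower in LAT KO cells where they changed. Of 27 tested members of the early response, 8 were lower, none was higher (limma, here and below), and the median was -0.58. The called share was 29.6%, against 4.03% of all autosomal genes. Egr1 read -0.62, -0.87 and -0.46 in LAT KO cells, against 1.02, 1.62 and 1.84 in Y136F cells. Egr2 read -0.64, -1.34 and -0.64 in LAT KO cells and 1.32, 1.15 and 1.42 in Y136F cells. Both are zinc finger factors downstream of Ras and calcium, and their LAT KO levels were 0.227 and 0.223 times the Y136F levels (-2.14 ± 0.27 and -2.17 ± 0.27, adjusted p = 0.000237 for each). Nr4a1, a nuclear receptor used as a readout of TCR signal strength, read -2.23, -2.30 and -2.18 in LAT KO cells and -1.30, -1.0 and -0.82 in Y136F cells (-1.2 ± 0.15, adjusted p = 0.000238), and Egr3 was lower by 1.07 ± 0.21 (adjusted p = 0.00721). These 4 genes passed in each of the 6 fits that left out 1 of the 6 arrays and with labelled sex as a term (adjusted p = 0.00987 to 0.0357).

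In WT cells these 4 genes lay on the side of Y136F. Egr1 had WT levels of 1.1, 1.22 and 0.84, Egr2 of 1.87, 1.36 and 1.13, and Nr4a1 of -0.69, -0.36 and -0.57. LAT KO minus WT was -1.70 for Egr1, -2.33 for Egr2, -1.39 for Egr3 and -1.70 for Nr4a1 (adjusted p = 0.0177, 0.00103, 0.0169 and 8.86e-05), while Y136F minus WT was 0.44, -0.16, -0.32 and -0.49 and did not pass for any of them (adjusted p = 0.427, 0.773, 0.458 and 0.101). Irf4, a factor whose level follows TCR signal strength, had 3 separate levels, at -1.99, -1.73 and -2.28 in LAT KO, -0.95, -0.87 and -0.99 in Y136F and 0.32, -0.03 and 0.06 in WT cells. Its call between the mutants (-1.07 ± 0.23, adjusted p = 0.0139) was lost without LAT KO replicate 3, Y136F replicate 1 or Y136F replicate 2 (adjusted p = 0.0779, 0.0544 and 0.0637). Jun, an AP-1 subunit, was lower by 1.61 ± 0.34 (adjusted p = 0.0113), with WT near LAT KO at -4.43, -4.23 and -4.60. The adjusted p of Jun was 0.065 without LAT KO replicate 2, and without Y136F replicate 1 it was 0.0544. Fos, its partner, had a difference of -1.59 ± 0.44 that did not pass (adjusted p = 0.0615). The list kept 5 lower calls without LAT KO replicate 2, 5 without Y136F replicate 1 and 4 with the sex term. With that term and without both arrays with contradicted sex labels it had 9 lower calls.

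**Figure D2:**
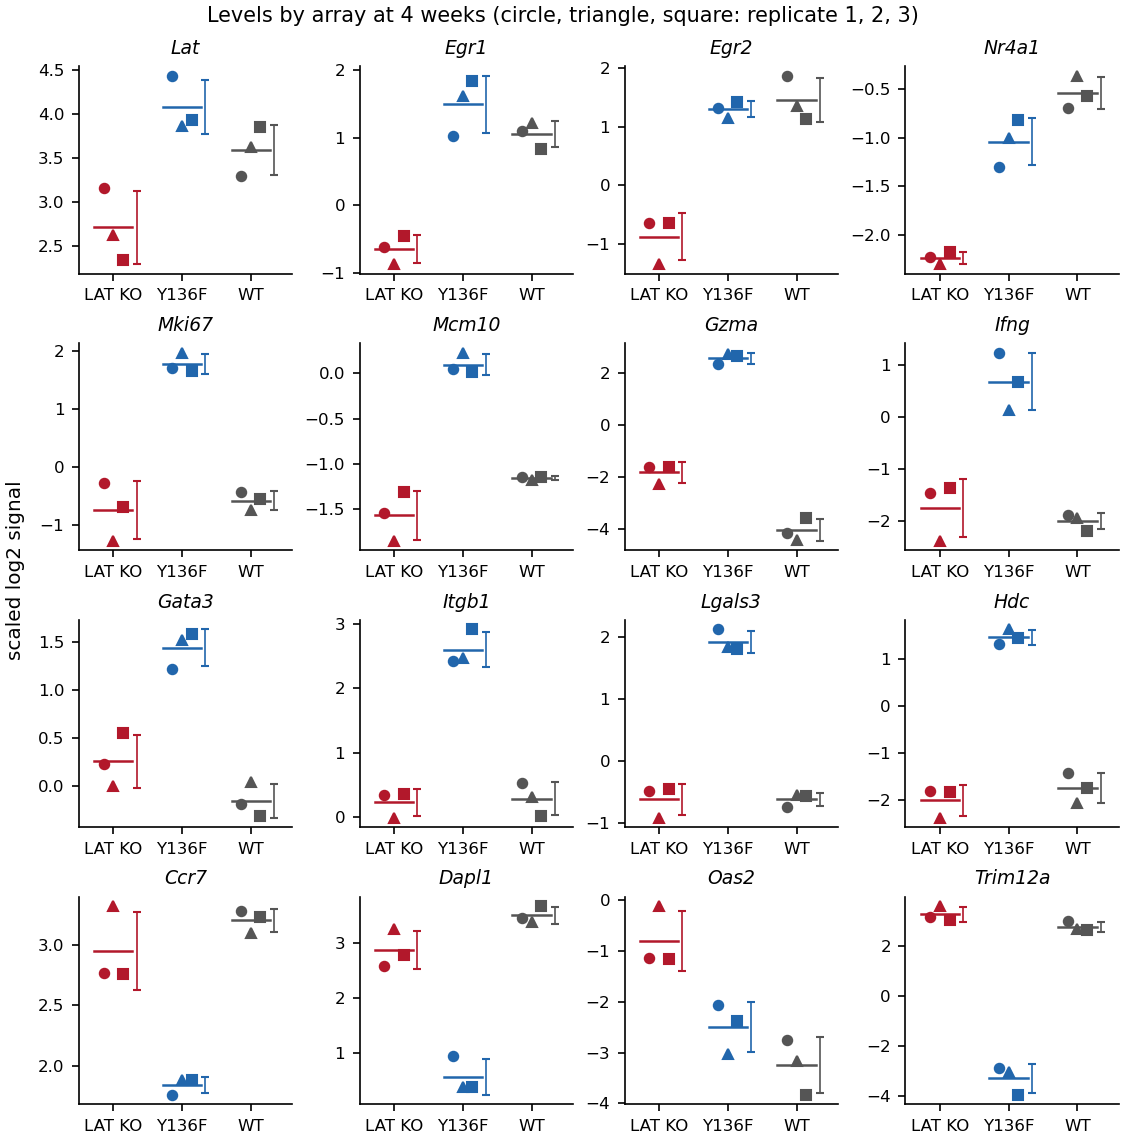
Scaled log2 signal (vertical axes, scale differs by panel) of 16 genes in the 3 LAT KO, 3 Y136F and 3 WT arrays of 4 weeks, with lines at the mean and bars for ± 1 SD. LAT KO stands apart for Egr1, Egr2 and Nr4a1, with Egr2 at most -0.64 in LAT KO against at least 1.13 in the other groups, and Y136F stands apart for Mki67, Itgb1, Lgals3, Hdc, Ccr7, Dapl1 and Trim12a.

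Among 25 tested negative regulators of TCR and ERK signalling, 1 was higher and 4 were lower in LAT KO cells. Dusp6, the phosphatase that limits ERK, read 1.74, 1.49 and 1.77 in LAT KO cells and 2.56, 2.80 and 2.78 in Y136F cells (-1.04 ± 0.17, adjusted p = 0.00154). Dusp4, a related nuclear phosphatase, was lower by 1.11 ± 0.22 (adjusted p = 0.00611). WT levels of Dusp6 were 2.91, 2.47 and 2.19. The list had 2 lower calls without LAT KO replicate 2 or Y136F replicate 3. With the sex term it had none in either direction, with adjusted p = 0.0792 for Dusp6 and 0.074 for Dusp4. Rgs1, a brake on chemokine receptors, had a difference of -1.65 ± 0.46 that missed the threshold (adjusted p = 0.0581).

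Genes of dividing cells were lower in LAT KO cells across most of their lists. Of 33 tested genes of mitosis and G2/M, 29 were lower in LAT KO cells and none was higher, with a median of -1.58, and all 33 differences were negative. Of 29 tested genes of DNA replication and S phase, 20 were lower and none was higher, with a median of -0.95. Against 2.81% of all autosomal genes called lower, these were 29 of 33 and 20 of 29. Mki67, the proliferation antigen Ki-67, read -0.28, -1.28 and -0.69 in LAT KO cells, against 1.72, 1.98 and 1.66 in Y136F cells, a LAT KO level 0.172 times the Y136F level (-2.54 ± 0.30, adjusted p = 0.000127). Top2a, the topoisomerase that untangles sister chromatids, was lower by 2.34 ± 0.28, Ccna2, cyclin A2, by 2.24 ± 0.27, and the kinetochore genes Cenpf and Cenpa by 2.17 ± 0.25 and 1.71 ± 0.19 (adjusted p from 9.44e-05 to 0.000143). The other probe of Cenpf gave -0.65 ± 0.42, and the mean over both -1.41. Aurkb, the Aurora B kinase, was lower by 3.53 ± 0.58 (adjusted p = 0.00166), but it was well above background on 1 of the 3 LAT KO arrays and its difference was -1.54 with normexp background correction. Plk1, a mitotic kinase, did not pass (-0.40 ± 0.18, adjusted p = 0.372).

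In S phase, Rrm2, the ribonucleotide reductase subunit, read -2.20, -3.19 and -2.92 in LAT KO cells and -0.35, 0.14 and 0.12 in Y136F cells (-2.74 ± 0.40, adjusted p = 0.000701). Mcm10, a replication initiation factor, read -1.54, -1.85 and -1.31 in LAT KO cells and 0.05, 0.23 and 0.01 in Y136F cells (-1.66 ± 0.17, adjusted p = 4.13e-05). Tyms (thymidylate synthase), Tk1 (thymidine kinase), Gins2 (of the replicative helicase) and Uhrf1 (which keeps DNA methylation through replication) were lower by 1.97, 1.95, 1.55 and 1.5. Pcna, the sliding clamp, did not pass (-0.53 ± 0.20, adjusted p = 0.209). Of 19 tested cyclins, kinases and inhibitors of G1, 5 were lower and none higher (26.3% called, against 4.03% of all autosomal genes). The lower genes included Ccne2, a cyclin E (-1.53 ± 0.19), Cdk6 (-1.19 ± 0.18) and the inhibitor Cdkn1a (p21, -1.11 ± 0.19). WT arrays lay with LAT KO: the WT mean was nearer to the LAT KO mean than to the Y136F mean in all 29 called mitosis genes and all 20 called S phase genes. For Mki67 WT levels were -0.43, -0.75 and -0.56. Without LAT KO replicate 2, 23 mitosis, 13 S phase and 3 G1 genes were lower, and with labelled sex as a term 11, 4 and 2, among them Mki67, Top2a, Ccna2, Cenpf, Cenpa, Mcm10, Tk1 and Uhrf1 (adjusted p = 0.0119 to 0.0416). With that term and without both arrays with contradicted sex labels 17, 12 and 2 were lower.

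The promoters of these genes were read from a RefSeq table (build GRCm38.p6, 300 bases around each start) because the members moved together. The letters TTTGAA, the core of the element known in promoters of G2/M genes, were searched on both strands. They stood in 20 of 28 promoters of 27 matched mitosis genes (71.4%), in 4 of 31 promoters of 25 matched S phase genes (12.9%) and in 5878 of all 32851 promoters (17.9%). The letters TTTGGCGC, an E2F site, stood in 5 of the 31 S phase promoters (16.1%), in none of the 28 mitosis promoters and in 0.514% of all. A match is a description and not a site shown to be used. The 3 called mitosis genes of smallest p that hold TTTGAA are shown 5′ to 3′ along the gene's strand, with TTTGAA in capitals, at chr5:30666636-30666935 (plus strand) for Cenpa, chr1:189688037-189688336 (minus strand) for Cenpf and chr7:135716330-135716629 (minus strand) for Mki67.
Cenpa: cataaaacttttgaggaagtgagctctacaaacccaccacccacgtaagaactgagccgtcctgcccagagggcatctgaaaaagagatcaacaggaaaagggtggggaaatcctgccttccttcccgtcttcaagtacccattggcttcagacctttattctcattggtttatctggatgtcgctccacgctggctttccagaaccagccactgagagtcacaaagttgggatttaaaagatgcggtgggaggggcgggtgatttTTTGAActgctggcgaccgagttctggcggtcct
Cenpf: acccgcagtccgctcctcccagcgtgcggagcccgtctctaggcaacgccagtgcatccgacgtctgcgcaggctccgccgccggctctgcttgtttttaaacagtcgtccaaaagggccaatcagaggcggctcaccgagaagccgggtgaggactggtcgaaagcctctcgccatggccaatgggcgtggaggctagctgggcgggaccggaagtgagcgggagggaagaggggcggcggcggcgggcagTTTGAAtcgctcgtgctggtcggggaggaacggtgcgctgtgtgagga
Mki67: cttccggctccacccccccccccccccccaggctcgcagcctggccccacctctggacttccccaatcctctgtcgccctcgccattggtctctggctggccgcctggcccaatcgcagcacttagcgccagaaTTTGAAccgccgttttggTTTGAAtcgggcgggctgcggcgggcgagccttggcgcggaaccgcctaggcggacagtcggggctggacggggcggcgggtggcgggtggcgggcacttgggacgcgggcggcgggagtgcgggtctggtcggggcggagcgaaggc

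Genes of cytotoxic effector cells were among the largest falls. Of 16 tested, 7 were lower, 1 was higher and the median was -1.19. Gzma, granzyme A, read -1.61, -2.28 and -1.6 in LAT KO cells, against 2.34, 2.76 and 2.65 in Y136F cells, a LAT KO level 0.0469 times the Y136F level (-4.41 ± 0.61, adjusted p = 0.000437). Its WT levels were lower still, at -4.15, -4.42 and -3.59. Gzmb, granzyme B, read -1.92, -3.63 and -2.48 in LAT KO cells and 0.66, -0.10 and 0.53 in Y136F cells (-3.04 ± 0.54, adjusted p = 0.00315). Fasl, the death ligand, was lower by 1.08 ± 0.19, Ctla2a, a protease inhibitor of activated T cells, by 1.6 ± 0.24, and Serpinb6b, a serpin, by 1.31 ± 0.23. The pore-forming perforin Prf1 went the other way, at 0.34, 0.27 and 0.47 in LAT KO cells and -0.64, -0.50 and -0.46 in Y136F cells (0.89 ± 0.13, adjusted p = 0.00082). The list kept 6 lower calls and 1 higher without LAT KO replicate 2, and none with the sex term. With that term and without both arrays with contradicted sex labels 4 were lower and none higher.

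Of 21 effector and memory transcription factors 8 were lower and none higher, with a median of -0.88 (38.1% called, against 4.03% of all autosomal genes). Bhlhe40, a factor of cytokine-producing T cells, read -2.14, -2.65 and -2.23 in LAT KO cells and -0.36, -0.37 and 0.01 in Y136F cells (-2.10 ± 0.23, adjusted p = 7.87e-05). Eomes, a T-box factor of effector cells, read -1.25, -2.0 and -1.16 in LAT KO cells and 0.13, 0.94 and 0.64 in Y136F cells (-2.04 ± 0.38, adjusted p = 0.00499). Id2, an inhibitor of E proteins, was lower by 1.70 ± 0.31 (adjusted p = 0.00374). There were 4 lower calls without LAT KO replicate 2, 5 without Y136F replicate 3, and with the sex term 1, Bhlhe40 (adjusted p = 0.0119). With that term and without both arrays with contradicted sex labels there were 4.

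Of 18 tested Th2 genes 6 were lower and none higher, with a median of -0.90 (33.3% called, against 4.03% of all autosomal genes). Gata3, the master factor of Th2 cells, read 0.23, -0.00 and 0.55 in LAT KO cells, against 1.22, 1.52 and 1.58 in Y136F cells, and -0.19, 0.04 and -0.31 in WT cells. Its difference of -1.18 ± 0.20 (adjusted p = 0.0019) made the LAT KO level 0.442 times the Y136F level. Nfil3, a basic leucine zipper factor, was lower by 2.15 ± 0.27 (adjusted p = 0.000225) and Maf, which activates Il4, by 1.65 ± 0.26 (adjusted p = 0.0012). Il1rl1, the IL-33 receptor, was lower by 2.19 ± 0.47 (adjusted p = 0.0125), a call that was lost without LAT KO replicate 2 (0.0972) and without Y136F replicate 2 (0.0658). Il4 itself had a difference of -1.17 ± 0.35 that did not pass (adjusted p = 0.0901). The list had 3 lower calls without LAT KO replicate 2, 4 without Y136F replicate 2 and 1, Nfil3, with the sex term. With that term and without both arrays with contradicted sex labels it had 3.

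The CD44, integrin, galectin and S100 genes, which mark antigen-experienced T cells, had 8 lower and 1 higher of 25 tested and a median of -0.61. The called share was 36.0%, against 4.03% of all autosomal genes. Lgals3, galectin-3, read -0.48, -0.91 and -0.45 in LAT KO cells and 2.13, 1.84 and 1.82 in Y136F cells (-2.54 ± 0.23, adjusted p = 1.45e-05). Itgb1, the beta-1 integrin chain, read 0.34, -0.01 and 0.36 in LAT KO cells and 2.42, 2.46 and 2.91 in Y136F cells (-2.36 ± 0.27, adjusted p = 0.000103). Annexins Anxa2 and Anxa1 were lower by 2.52 ± 0.46 and 1.5 ± 0.25. WT means of Lgals3 and Itgb1 were -0.61 and 0.29, within the range of the LAT KO arrays. Cd44, whose product was kept low by the sort, did not pass (-0.57 ± 0.26, adjusted p = 0.366), and its 2 other probes gave 0.0 and -0.83. Without LAT KO replicate 2, without LAT KO replicate 3, without Y136F replicate 1 or without Y136F replicate 3 the list had 4 lower calls and none higher, without Y136F replicate 2 it had 5, and with the sex term it had 2, Lgals3 and Itgb1. With that term and without both arrays with contradicted sex labels it had 3 lower calls.

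Of 24 tested chemokines and chemokine receptors of T cells 6 were lower and none higher (median -0.48). The called share was 25.0%, against 4.03% of all autosomal genes. Ccl1, a ligand of the Th2 receptor CCR8, read -2.11, -3.10 and -1.65 in LAT KO cells and 0.92, 1.63 and 1.35 in Y136F cells (-3.58 ± 0.50, adjusted p = 0.000432). Ccr2, a receptor for inflammatory chemokines, was lower by 2.94 ± 0.37, and Ccl4, an inflammatory chemokine, by 2.51 ± 0.46. The list had 4 lower calls without LAT KO replicate 2, and with the sex term 1, Ccr2 (adjusted p = 0.0287). With that term and without both arrays with contradicted sex labels it had 4. Of 25 cytokines and TNF family ligands 6 were lower and none higher (median -0.54), a called share of 24.0%. Ifng read -1.47, -2.38 and -1.37 in LAT KO cells and 1.23, 0.13 and 0.66 in Y136F cells (-2.42 ± 0.44, adjusted p = 0.00396). Csf1, the macrophage growth factor, was lower by 3.01 ± 0.46, at a LAT KO level 0.124 times the Y136F level, and Tnfsf8, CD30 ligand, by 1.2 ± 0.23. Il21, the cytokine of follicular helper cells, had a difference of -2.16 ± 0.61 that did not pass (adjusted p = 0.065). The cytokine list had 4 lower calls without LAT KO replicate 2, and with the sex term none. With that term and without both arrays with contradicted sex labels it had 4.

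Of 19 tested autosomal regulatory T cell genes 4 were lower and none higher (21.1% called, against 4.03% of all autosomal genes). They were the TNF receptors Tnfrsf4 (OX40, -1.33 ± 0.22) and Tnfrsf9 (4-1BB, -1.90 ± 0.36), the ectoenzyme Entpd1 (CD39, -1.87 ± 0.33) and the cytokine subunit Ebi3 (-1.36 ± 0.26), with adjusted p from 0.00188 to 0.00544. All 4 passed without LAT KO replicate 2 and none passed with the sex term. With that term and without both arrays with contradicted sex labels Tnfrsf9 alone passed (adjusted p = 0.0339). Tnfrsf9 had WT levels of 0.79, 0.20 and -0.07, beside -1.22, -1.92 and -1.34 in LAT KO and 0.30, 0.24 and 0.68 in Y136F cells. Of 17 inhibitory receptors and anergy ligases 5 were lower and none higher (29.4% called). Pdcd1, PD-1, read -0.06, -1.14 and -0.22 in LAT KO cells and 1.57, 1.6 and 1.81 in Y136F cells (-2.13 ± 0.39, adjusted p = 0.00432). Lag3, an MHC class II binding receptor, was lower by 2.31 ± 0.46 (adjusted p = 0.00669), and it missed the threshold without LAT KO replicate 2 (0.051) or Y136F replicate 2 (0.0519). The inhibitory list had 2 lower calls without LAT KO replicate 2, Y136F replicate 2 or Y136F replicate 3, 3 without LAT KO replicate 1 and 1 with the sex term.

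**Figure D3:**
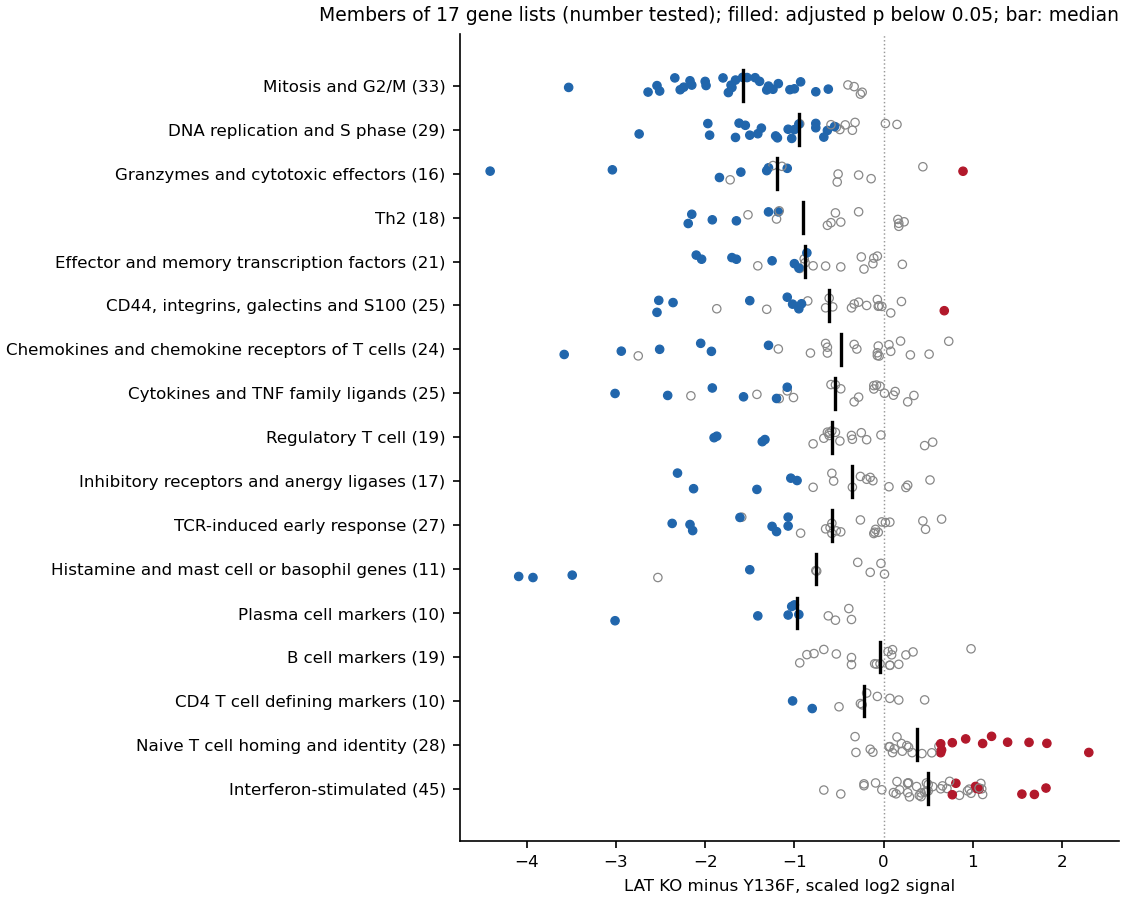
Each point is a tested member of 1 of 17 gene lists (number tested in brackets), placed by its difference LAT KO minus Y136F in scaled log2 signal, filled where the limma adjusted p was below 0.05, and black bars give the list's median. The mitosis list has 29 of 33 members filled on the left and the naive list 11 of 28 filled on the right, while the B cell list has none filled.

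Genes of naive T cell identity that passed the test were all higher in LAT KO cells. Of 28 tested, 11 were higher, none was lower and the median was 0.38, against 1.21% of all autosomal genes called higher. Dapl1, abundant in naive T cells, read 2.57, 3.25 and 2.78 in LAT KO cells, against 0.94, 0.38 and 0.38 in Y136F cells (2.30 ± 0.23, adjusted p = 3.25e-05). Actn1, alpha-actinin-1, read 3.09, 3.26 and 3.27 in LAT KO cells and 1.76, 1.74 and 1.95 in Y136F cells (1.39 ± 0.13, adjusted p = 2.08e-05). Igfbp4, an IGF-binding protein, was higher by 1.83 ± 0.22 (adjusted p = 0.000135). Ccr7, the lymph node homing receptor, read 2.77, 3.32 and 2.76 in LAT KO cells and 1.76, 1.88 and 1.88 in Y136F cells (1.11 ± 0.16, adjusted p = 0.000459), and Ly6c1, a surface marker of naive subsets, was higher by 1.63 ± 0.20 (adjusted p = 0.000227). Dapl1, Actn1, Igfbp4 and Ccr7 had WT means of 3.50, 3.02, 3.0 and 3.20, near the LAT KO means of 2.87, 3.21, 2.76 and 2.95. Ly6c1 had a WT mean of 2.02, nearer to the Y136F mean of 1.23 than to the LAT KO mean of 2.86, and 2 of the 11 called genes lay nearer to Y136F. The list had 6 higher calls without LAT KO replicate 2, 7 without Y136F replicate 1, 7 without Y136F replicate 2 and 5 with the sex term, which were Dapl1, Actn1, Igfbp4, Ccr7 and Ly6c1 (adjusted p = 0.00516 to 0.0181). Dntt, the terminal transferase of developing T cells, was also higher (0.93 ± 0.17, adjusted p = 0.00341), and its 2 other probes gave 1.55 and 1.53.

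Interferon-stimulated genes that passed the test were higher in LAT KO cells, and none passed without LAT KO replicate 2. Of 45 tested, 8 were higher, none was lower, and the median was 0.50. The called share was 17.8%, against 4.03% of all autosomal genes. In 32 of the 45 the LAT KO arrays lay above all Y136F arrays, which held for 11.8% of all genes tested. Oas2, an oligoadenylate synthetase, read -1.14, -0.12 and -1.15 in LAT KO cells, against -2.07, -3.03 and -2.38 in Y136F cells and -2.75, -3.16 and -3.83 in WT cells (1.69 ± 0.39, adjusted p = 0.021). Oasl1, of the same family, read 0.28, 1.32 and 0.46 in LAT KO cells and -0.78, -1.13 and -0.68 in Y136F cells (1.55 ± 0.34, adjusted p = 0.0134). Usp18, which removes the ISG15 tag, was higher by 1.07 ± 0.25, Slfn5, a schlafen, by 1.03 ± 0.21, and Ifit3b, an antiviral RNA-binding protein, by 1.82 ± 0.43 (adjusted p = 0.019, 0.00739 and 0.0235). Irf7, the factor that amplifies interferon production, read 2.83, 3.0 and 2.89 in LAT KO cells and 1.88, 1.63 and 1.94 in Y136F cells, and missed the threshold (1.09 ± 0.30, adjusted p = 0.0524). LAT KO replicate 2 was the highest of the 3 LAT KO arrays for Oas2, Oasl1, Usp18, Slfn5, Ifit3b and Irf7. Without it none of the 45 passed, with a median of 0.41. Without Y136F replicate 2 there was 1 call, without Y136F replicate 1 there were 2, and with the sex term there was none, with a median of 0.52. Here the WT mean was nearer to the Y136F mean in all 8 called genes and in 39 of the 45.

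The letters GAAANNGAA, part of the interferon-stimulated response element, were searched on both strands in the same RefSeq promoters. They stood in 22 of 43 promoters of 34 matched interferon genes (51.2%) and in 8.56% of all promoters. Of the called genes of smallest p that hold them, 2 are shown with the letters in capitals (as their reverse complement where the match is on the opposite strand), at chr11:82951852-82952151 (plus strand) for Slfn5 and chr19:34607707-34608006 (plus strand) for Ifit3b.
Slfn5: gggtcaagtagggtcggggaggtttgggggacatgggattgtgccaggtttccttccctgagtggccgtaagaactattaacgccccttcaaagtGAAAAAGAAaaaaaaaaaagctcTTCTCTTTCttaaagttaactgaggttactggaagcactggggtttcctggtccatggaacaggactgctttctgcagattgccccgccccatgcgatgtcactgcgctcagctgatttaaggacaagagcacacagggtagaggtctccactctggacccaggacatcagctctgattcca
Ifit3b: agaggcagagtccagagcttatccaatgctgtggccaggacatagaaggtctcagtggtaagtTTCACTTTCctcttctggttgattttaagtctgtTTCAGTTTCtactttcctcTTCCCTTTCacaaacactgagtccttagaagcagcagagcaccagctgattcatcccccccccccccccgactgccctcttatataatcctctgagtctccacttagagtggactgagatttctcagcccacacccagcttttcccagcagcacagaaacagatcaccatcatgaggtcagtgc

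Genes of histamine synthesis and sensing were also lower. Hdc, histidine decarboxylase, which makes histamine, read -1.82, -2.39 and -1.83 in LAT KO cells, against 1.33, 1.64 and 1.45 in Y136F cells, a LAT KO level 0.0892 times the Y136F level (-3.49 ± 0.22, adjusted p = 1.26e-07). Its WT levels were -1.43, -2.07 and -1.76. Hrh4, the histamine H4 receptor, read -4.20, -5.03 and -4.00 in LAT KO cells and -0.64, -0.42 and -0.38 in Y136F cells (-3.93 ± 0.44, adjusted p = 9.03e-05). Both passed with the sex term (adjusted p = 0.000143 and 0.00522). Cpa3, the mast cell carboxypeptidase, read -5.52, -7.43 and -5.49 in LAT KO cells and -2.46, -0.66 and -3.07 in Y136F cells (-4.09 ± 0.82, adjusted p = 0.00739). It was well above background on 2 of the 3 LAT KO arrays, and its call was lost without LAT KO replicate 2 (0.0653) or Y136F replicate 2 (0.06). Mcpt8, Fcer1a and Ms4a2, also read as markers of mast cells and basophils, overlapped between the groups. Mcpt8 ranged from -2.48 to -2.13 in LAT KO and -2.76 to -1.78 in Y136F cells, Fcer1a from -1.34 to -1.19 and -1.34 to -0.42, and Ms4a2 from -5.67 to -5.07 and -6.15 to -4.81. Of 11 tested genes of this list, 4 were lower and none higher (36.4% called, against 4.03% of all autosomal genes). There were 2 lower without LAT KO replicate 2 or Y136F replicate 2 and 4 with the sex term. With that term and without both arrays with contradicted sex labels 3 were lower. In 6 of the 11 the LAT KO arrays lay below all Y136F arrays, against 11.6% of all genes tested. The difference was negative in 10 of the 11.

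Markers of other cells a sort could hold were read in the same way. Of 10 plasma cell genes 6 were lower, and 2 without LAT KO replicate 2, 3 without Y136F replicate 1 or Y136F replicate 3 and none with the sex term. With that term and without both arrays with contradicted sex labels 2 were lower. Jchain, the joining chain of secreted antibody, read -1.84, -3.22 and -2.0 in LAT KO cells and 1.35, 0.32 and 0.30 in Y136F cells (-3.01 ± 0.53, adjusted p = 0.00282). Mzb1, an antibody-folding cofactor, was lower by 1.41 ± 0.29 (adjusted p = 0.00864), with 0.0508 without LAT KO replicate 2. Sdc1, which defines plasma cells, did not pass, at -4.32, -3.93 and -4.07 in LAT KO and -3.34, -3.59 and -3.77 in Y136F cells. None of 19 B cell genes passed, with a median of -0.04. Of 20 myeloid genes 3 were lower, and none without LAT KO replicate 2, LAT KO replicate 3, Y136F replicate 1 or Y136F replicate 2, led by S100a8, a neutrophil protein (-3.23 ± 0.76, adjusted p = 0.0224), which was well above background on 2 of the 3 LAT KO arrays and whose adjusted p was 0.164 without LAT KO replicate 2, 0.0733 without LAT KO replicate 3, 0.163 without Y136F replicate 1 and 0.074 without Y136F replicate 2. Lyz2 read -1.71, -1.75 and -1.86 in LAT KO cells and -1.23, -1.6 and -1.91 in Y136F cells and did not pass. The myeloid list had no call with the sex term. Of 13 NK cell genes 3 were lower, Gzma, Eomes and the NK receptor gene Klrb1c (-0.89 ± 0.23, adjusted p = 0.04), with 2 without LAT KO replicate 2 and none with the sex term. With that term and without both arrays with contradicted sex labels 2 were lower. Klrb1c read -3.15, -3.61 and -3.12 in LAT KO cells and -2.37, -2.42 and -2.43 in Y136F cells, and it was lost in each fit without 1 of the 6 arrays (0.0676 to 0.272). Its other probe gave a larger fall, of -2.12 ± 0.44. The NK genes Ncr1 and Klre1 did not pass (0.41 ± 0.23 and -0.09 ± 0.31). Of 5 CD8 T cell genes 1 was lower, Eomes again, and Cd8a did not pass (0.16 ± 0.16). The 2 other probes of Cd8a went the opposite way, at -0.25 ± 0.30 and -0.70 ± 0.30. None of the erythroid or gamma-delta T cell genes passed. The part of other cells in the falls was not tested.

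Single genes outside the lists gave some of the largest values. Trim12a, a tripartite motif gene, read 3.17, 3.59 and 3.03 in LAT KO cells, against -2.88, -3.03 and -3.93 in Y136F cells and 2.99, 2.69 and 2.64 in WT cells. Its difference of 6.55 ± 0.23 (adjusted p = 1.5e-11) is a LAT KO level 93.5 times the Y136F level on the probe used. Its other probe gave 1.92 ± 0.18, and the mean over both probes 4.23, so the size of the change depends on the probe. The call passed with the sex term (adjusted p = 2.77e-08). All 9 arrays of 1 week lay between 3.08 and 3.78, the Y136F arrays of that time at 3.78, 3.68 and 3.53. Its adjacent genes in the RefSeq order, looked up after these values were seen, were Trim12c, a close copy of it (1.29 ± 0.20, adjusted p = 0.000914), and Trim34a (0.36 ± 0.18, adjusted p = 0.478). Farther out, Trim30d was also higher (0.84 ± 0.19, adjusted p = 0.0193). Trim30b, Trim30a and Trim6 did not pass (1.40 ± 0.49, 0.66 ± 0.21 and 0.13 ± 0.33). Probes of near-identical genes can share signal, so the split between Trim12a and Trim12c is uncertain.

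Rab6b, a small GTPase of Golgi traffic, was next among the rises, at 0.62, 0.81 and 0.93 in LAT KO and -2.31, -2.10 and -1.21 in Y136F cells (2.66 ± 0.43, adjusted p = 0.00156). Slc16a5, a monocarboxylate transporter, was higher by 1.88 ± 0.20, Atp1b1, a sodium pump subunit, by 1.66 ± 0.15, Acvrl1, a receptor of the TGF-beta family, by 1.65 ± 0.18, and Cers6, a ceramide synthase, by 1.58 ± 0.17, with adjusted p from 1.51e-05 to 7.42e-05. These 4 also passed with the sex term (0.00522 to 0.00878), and Rab6b did not (0.175). Amigo2, an adhesion protein, and Adh1, an alcohol dehydrogenase, were higher by 2.02 ± 0.32 and 1.52 ± 0.25, and did not pass with the sex term (0.0864 and 0.0582). With that term and without both arrays with contradicted sex labels Amigo2 and Adh1 passed (0.00659 and 0.00628), and Rab6b did not (0.0565). Of these rises, Slc16a5 had a WT mean of -0.96, nearer to the Y136F mean of -1.58 than to the LAT KO mean of 0.31, while Atp1b1, Acvrl1 and Cers6 had WT means nearer to LAT KO.

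Among the falls, Efna5, an ephrin ligand, read -2.03, -4.07 and -2.02 in LAT KO and 0.84, 1.46 and 1.40 in Y136F cells (-3.94 ± 0.65, adjusted p = 0.00194). Akr1c18, a progesterone-inactivating reductase, read -3.09, -3.69 and -2.64 in LAT KO and -0.61, 0.33 and -0.20 in Y136F cells (-2.98 ± 0.38, adjusted p = 0.000238). With the sex term Akr1c18 passed (0.0125), and Efna5, Slpi and Sostdc1 did not (0.16, 0.16 and 0.43). With that term and without both arrays with contradicted sex labels Akr1c18, Efna5 and Slpi passed (0.0275, 0.00175 and 0.00623) and Sostdc1 did not (0.0575). Slpi, a secreted protease inhibitor, was lower by 3.52 ± 0.61 on the probe used (adjusted p = 0.00272), while its other probe gave 0.06. Sostdc1, a secreted BMP antagonist, spread widely in LAT KO cells, at -1.39, -4.87 and -1.34, against 1.23, 1.21 and 1.54 in Y136F cells (-3.86 ± 1.00, adjusted p = 0.0406). Its call was lost without LAT KO replicate 2 (0.301) and without Y136F replicate 1, 2 or 3 (0.121, 0.116 and 0.119).

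Stress and metabolic groups had at most 3 calls each. The called share was still above the 4.03% of all autosomal genes for the heat shock, glycolysis, unfolded protein response and p53 lists. It lay nearer to that value for the cholesterol and gamma-chain lists (4.55% each) and the BCL2 list (6.25%). Of 20 heat shock genes 3 were higher and none lower (median 0.10), with Dnajb1 and Dnajb4, cochaperones of HSP70, higher by 0.94 ± 0.17 and 0.81 ± 0.13 (adjusted p = 0.00376 and 0.00178). The heat shock list had 2 calls without LAT KO replicate 2 and 1 with the sex term, Dnajb1 (0.0345), against 0.0551 for Dnajb4. Of 24 genes of glycolysis, nutrient uptake and Myc 3 were lower and none higher (median -0.37), led by Tpi1, triosephosphate isomerase, at 1.42, 1.32 and 1.42 in LAT KO and 2.72, 2.70 and 2.74 in Y136F cells (-1.33 ± 0.19, adjusted p = 0.000671). The glycolysis list had 1 lower call without LAT KO replicate 2, LAT KO replicate 3 or Y136F replicate 1, and none with the sex term (0.136 for Tpi1). With that term and without both arrays with contradicted sex labels it had 1, Tpi1 (0.0478). Of 22 genes each, 1 cholesterol synthesis gene and 2 genes of the unfolded protein response were lower and none higher (medians -0.29 and -0.35). Of 22 genes of the gamma-chain receptors and JAK-STAT5 1 was lower, of 16 BCL2 family genes 1, and of 15 p53 targets 3. The cholesterol, unfolded protein response, gamma-chain and BCL2 calls were all lost without LAT KO replicate 2, where 2 p53 targets passed, and none of the 5 lists had a call with the sex term. None of 11 class IIa HDAC, MEF2 and PKD genes passed. The called shares of the 19 autosomes lay between 2.54% on chromosome 7, which carries Lat and Trim12a, and 5.45% on chromosome 13.

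WT cells gave a further level at 4 weeks, with all 3 WT mice labelled male like the LAT KO mice. Among the 462 genes lower in LAT KO than in Y136F cells, the WT mean was nearer to the LAT KO mean in 430 (93.1%) and nearer to the Y136F mean in 32. Among the 199 higher genes these numbers were 133 (66.8%) and 66. Over all 16406 autosomal genes with a value in each group the WT mean was nearer to LAT KO in 53.8%. Since the called genes differ between the mutants, these are positions of another group and no test. The lists of the early response, interferon, inhibitory receptors and negative regulators had more of their called members nearer to Y136F (5 of 8, 8 of 8, 3 of 5 and 3 of 5), and the lists of mitosis, S phase, Th2 genes and effector factors had none.

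The same contrast at 1 week gave no autosomal gene past the threshold in limma, with 1060 genes at an unadjusted p under 0.05, against 2176 at 4 weeks. In the 1-week LAT KO group, replicate 1 had a contradicted sex label. Replicate 3 had 7888 outlier spots, left out of the fit, against 187 to 952 on the other arrays of the series. The 1-week count without either array is not given. The change of the difference between the times, tested as an interaction, passed for 220 autosomal genes (1.34%), of which 210 were also called at 4 weeks. Lgals3 had a difference of 0.61 at 1 week and -2.54 at 4 weeks (change -3.15, adjusted p = 0.000151), and Hdc 0.73 and -3.49 (change -4.22, adjusted p = 1.56e-06). Mki67 had -0.28 and -2.54 (change -2.26, adjusted p = 0.0114), and Dapl1 -0.41 and 2.30 (change 2.71, adjusted p = 0.000688). Lat differed by -1.72 at 1 week and by -1.37 at 4 weeks, a change of 0.36 that did not pass (adjusted p = 0.78). Its 1-week LAT KO level rested on replicates 1 and 3 (2.32 and 2.73), as replicate 2 had no value. For Egr1, Egr2 and Nr4a1 the 1-week differences were -1.07, -0.88 and -0.42, and the changes did not pass (adjusted p = 0.233, 0.134 and 0.0941). A 1-week LAT KO array and LAT KO replicate 2 of 4 weeks are the arrays with contradicted sex labels. Without both, 86 genes passed the test of the change. Without LAT KO replicate 2 of 4 weeks alone 86 passed, without Y136F replicate 1 125 and without Y136F replicate 2 126. With slide as a fixed term 49 passed.

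**Figure D4:**
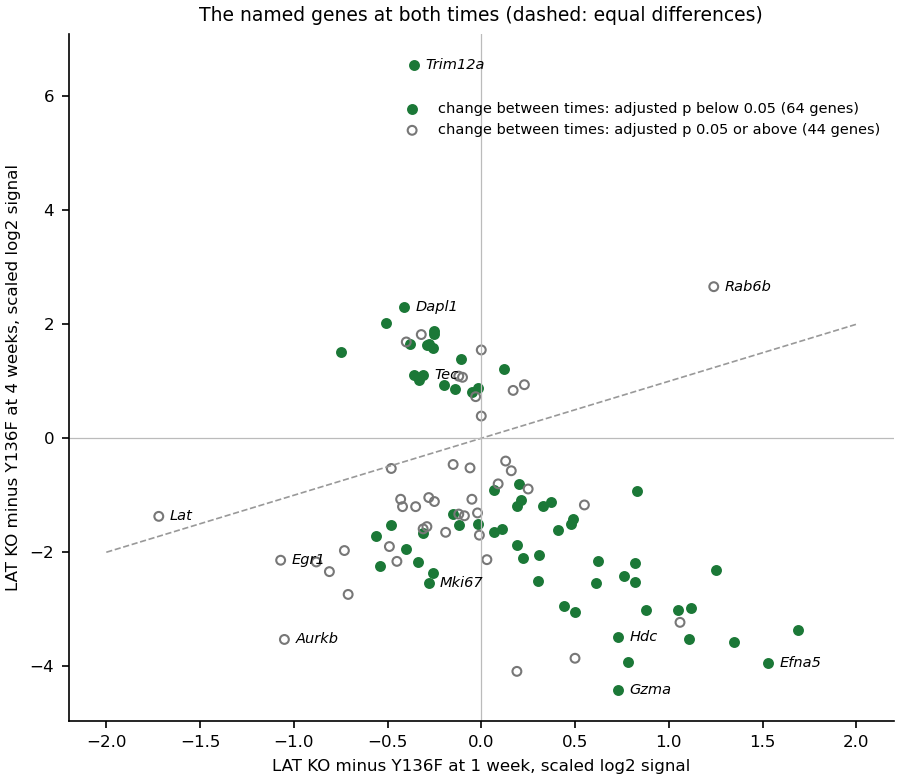
The difference LAT KO minus Y136F in scaled log2 signal at 1 week (horizontal axis) and 4 weeks (vertical axis) for the genes named in the text, filled where the change between the times had a limma adjusted p below 0.05, with a dashed line where both differences are equal. Trim12a stands at -0.36 and 6.55, far from the line, and Lat at -1.72 and -1.37, near it. LAT KO replicate 2 of 1 week had no value for Lat.

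The 6 arrays lay on 4 slides, and 2 slides held 1 array of each group. Within these slides Mki67 differed by -2.35 and -2.0, Egr2 by -2.06 and -1.95, Hdc by -3.28 and -3.15, Dapl1 by 2.40 and 1.63 and Oas2 by 1.22 and 0.93. With slide as a fixed term of the fit 114 genes were higher and 325 lower.

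**Figure D5:**
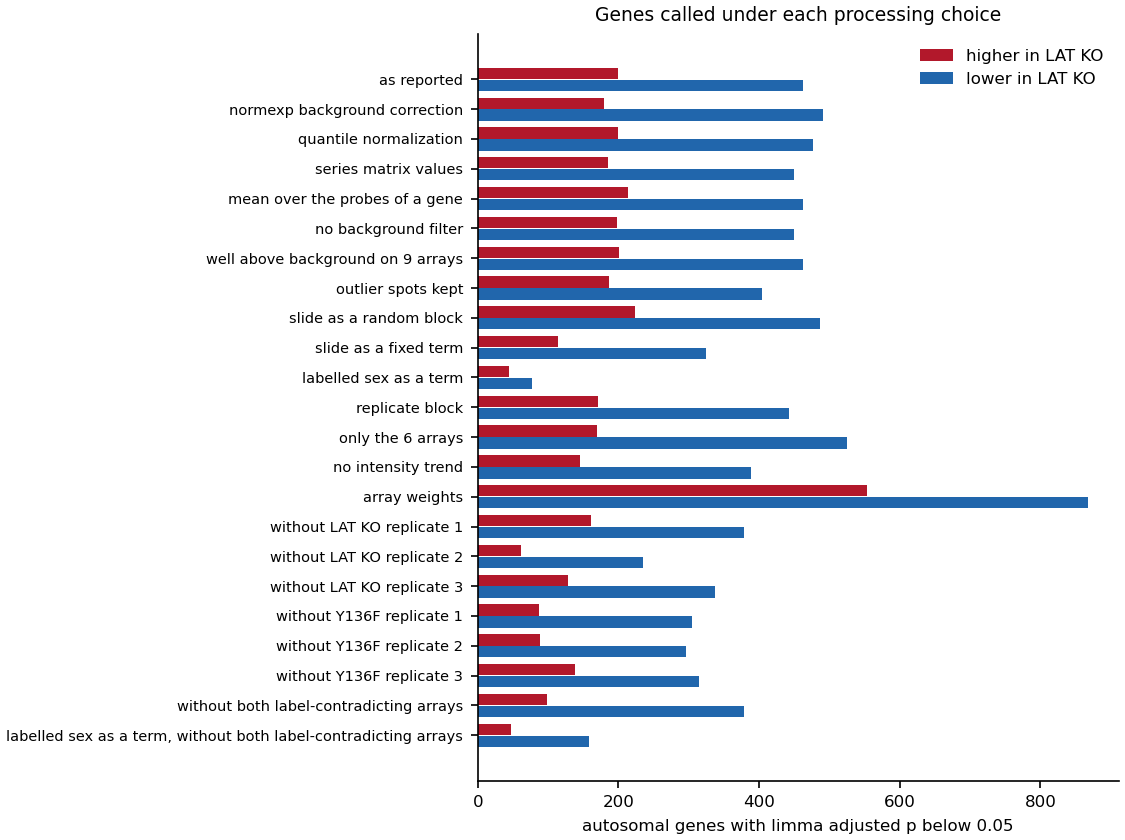
Number of autosomal genes (horizontal axis) with a limma adjusted p below 0.05, higher (upper bar) or lower (lower bar) in LAT KO than in Y136F cells, as reported and under each other processing choice. Lower genes outnumber higher genes under each choice, with the smallest counts, 45 and 77, where labelled sex is a term.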

How the data were processed

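RNA of sorted naive CD4+ T cells was labelled with Cy3 and hybridised to Agilent 4x44k mouse arrays, 1 mouse each. Per the file headers, the deposited intensity values are the processed signals of Agilent Feature Extraction 10.5.1.1, already background-subtracted. The authors' deposited series table holds log2 values of the same arrays and served as an alternative, and the submitters' processing notes name Feature Extraction 10.5 and limma. Here the log2 processed intensity minus each array's 75th percentile was used, outlier spots were left out, and the brightest probe stood for a gene if well above background on at least 3 of 18 arrays. Limma 3.58.1 (R 4.3.3) fitted 6 group means over 18 arrays with an intensity trend (12 residual degrees of freedom), with two-sided tests and p-values adjusted by Benjamini-Hochberg across 31571 features at a threshold of 0.05. The script was tested on simulated data. Chromosomes and promoters came from RefSeq tables of GRCm38.p6. The array design uses another build, so no probe coordinates are given. Named genes were Lat, the largest non-overlapping rises and falls, the called list members of smallest p, the nearest or defining members not called, the largest changes between times and defining markers of other cells. Members and gene lists were chosen with earlier results of these data known. Nothing says how litters or days were shared between mice. The alternative background correction (normexp, offset 50) used median intensities. Python 3.11.15, numpy 2.4.6, pandas 2.3.3 and matplotlib 3.10.9 made the summaries and figures. Some results are not reported here.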

Additional observations from a re-analysis of the deposited data

Results flagged for a closer look

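The difference LAT KO minus Y136F itself differed between 1 and 4 weeks (limma, test of the interaction, adjusted p under 0.05) for the genes that follow. Each value is the change of the difference in scaled log2 signal, 4 weeks minus 1 week. Falling differences were read in effector, cell cycle and single genes. The change was -5.47 for Efna5, -5.14 for Gzma, -4.93 for Ccl1, -4.71 for Hrh4, -4.64 for Slpi, -4.22 for Hdc, -4.10 for Akr1c18 and -4.06 for Jchain. Next came -3.90 for Csf1, -3.56 for Lag3, -3.54 for Gzmb, -3.38 for Ccr2, -3.34 for Anxa2, -3.18 for Ifng, -3.15 for Lgals3 and -3.00 for Il1rl1. Of these, Anxa2 and Il1rl1 had no value on LAT KO replicate 3 of 1 week. Replicates 1 and 2 of that group read 0.52 and -2.17 for Anxa2 and -1.5 and -3.83 for Il1rl1. Then followed -2.80 for Ccl4, -2.77 for Nfil3, -2.35 for Eomes, -2.32 for Bhlhe40, -2.26 for Mki67, -2.11 for Itgb1, -2.06 for Entpd1 and -2.01 for Jun. Smaller changes were -1.98 for Anxa1, -1.90 for Mzb1, -1.83 for Cenpf, -1.76 for Nr4a2, -1.72 for Maf, -1.71 for Ctla2a, -1.70 for Ccna2 and -1.56 for Tk1. Further values were -1.51 for Gata3, -1.48 for Cdkn1a, -1.48 for Uhrf1, -1.40 for Ccne2, -1.39 for Cdk6, -1.35 for Mcm10, -1.29 for Fasl and -1.18 for Tpi1. The last of these were -1.15 for Cenpa, -1.05 for Stmn1, -0.99 for Cd5 and -0.97 for Dok2. Osbpl6 gave -5.05, but its probe was well above background on 0 of 3 Y136F arrays at 1 week and 1 of 3 LAT KO arrays at 4 weeks, so neither the size of this change nor its place among the others is measured.

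Rising differences were read in naive and single genes. The change was 6.90 for Trim12a, 2.71 for Dapl1, 2.53 for Amigo2, 2.27 for Adh1, 2.13 for Slc16a5, 2.08 for Igfbp4, 2.04 for Atp1b1 and 1.93 for Acvrl1. Next came 1.93 for Ly6c1, 1.84 for Cers6, 1.5 for Actn1, 1.47 for Ccr7, 1.42 for Tec, 1.36 for Slfn5, 1.13 for Dntt and 1.09 for Tdrp. Smaller changes were 1.01 for Grap2, 0.92 for Prf1 and 0.86 for Dnajb4. Both arrays with contradicted sex labels, LAT KO replicate 1 at 1 week and LAT KO replicate 2 at 4 weeks, enter these values, and their part in them was not tested gene by gene. The 1-week array read -0.27 for Efna5, 0.48 for Gzma and -0.41 for Ccl1. LAT KO replicates 2 and 3 of 1 week read -3.65 and -3.34, -2.36 and -2.78, and -3.17 and -2.81. For Hdc the 3 arrays lay closer, at -1.31, -1.71 and -1.75. The sizes and order of the changes thus rest partly on that array for some genes.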

How the results depend on the processing

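Normexp background correction, quantile normalization, the authors' deposited values, the probe rule, both background filters, outlier spots, slide as a random block and the use of only the 6 arrays gave 590 to 710 called genes, against 661. With slide as a fixed term 439 were called, 114 of them higher, and 49 changes between the times. With labelled sex as a term 122 were called (45 higher, 77 lower), and 41 members of the gene lists against 167. Without the intensity trend 534 genes (146 higher, 388 lower) and 137 changes between the times were called. Array weights gave 1421 calls (553 higher, 868 lower) and 455 changes. Without both arrays with contradicted sex labels 99 genes were called higher and 86 changes remained past the threshold. The sex term without both, chosen after seeing the data, gave 206 calls (48 higher, 158 lower), 98 changes, 75 list members and a Lat difference of -1.58 that no longer passed (limma adjusted p = 0.154). In that fit the negative regulator, interferon and myeloid lists still had no call, and the naive list had 5 higher calls. Leaving out 1 of the 6 arrays in turn gave 297 to 539 calls, 62 to 161 higher and 235 to 378 lower, 86 to 177 changes, 95 to 152 list members and a Lat difference of -1.59 to -1.18. Of 95 called genes named besides Lat, 38 kept their call with the sex term and 78 without LAT KO replicate 2, and none turned its sign under any setting. With the sex term and without both arrays with contradicted sex labels 62 kept it. The causes were not tested. Same-numbered arrays correlated at 0.31, -0.253 and -0.423 in their deviations from the group means. With 3 arrays a group these values cannot show whether the numbers pair the mice. With the replicate block 613 genes were called (171 higher, 442 lower) and the Lat difference was -1.37. With 3 mice a group the number of arrays limits the precision, and genes below background on arrays of a group have uncertain folds.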
